A study of Mus musculus with 30 samples.

Results

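Dendritic cells (DCs) were followed in these data through 8 genes that mark DC subsets or steer them, namely Siglech, Ccr9, Tcf4, Xcr1, Clec9a, Batf3, Zbtb46 and Ccr7. The genes were taken by symbol from the gene column of the bone marrow (BM) count table and of the adipose tissue macrophage (ATM) count table, and all 8 were present in both, out of 13353 genes in BM and 17059 in ATM. All 8 could be tested in both tables.

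RNA-seq was run on whole BM cells and on macrophages from visceral adipose tissue, with 5 groups of 3 libraries in each tissue (30 in all). The recipients named in the protocols were leptin-deficient Ob/Ob mice and WT C57BL/6 mice, 12 to 14 weeks old and of both sexes, which were lethally irradiated (700 cGy, then 400 cGy) and given donor BM from Shp2 E76K/+ LysM-Cre+ mice mixed in equal number with Boy/J competitor BM. From 8 weeks after transplantation the Ob/Ob recipients received, for 30 days, vehicle (Vehicle), beinaglutide at 3 mg/kg (GLP-1R agonist), antibody against IL-17A at 200 μg per mouse, 3 injections a week (anti–IL-17A antibody), or the 2 agents together (Combo). The WT libraries carry no treatment label. By the protocols, Vehicle against WT would compare obese with lean recipients, but for ATM the study also describes the contrast as Ob/Ob recipients of mutant against WT donor cells, so recipient and donor cannot be told apart there. Each treated group against Vehicle addressed what the agents changed in obese recipients. The genotype field reads C57BL/6J for every library, and no field gives the donor of a single library. LysM-Cre acts in myeloid cells, so DCs in these samples could come from mutant donor cells, from the competitor or from the host, and the libraries do not separate these sources. The replicates are labelled as separate mice.

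DCs take up antigen and present it to T cells. Plasmacytoid DCs (pDCs) are the main source of type I interferon and depend on the transcription factor Tcf4. Conventional DCs (cDCs) carry the transcription factor Zbtb46 and fall into a cross-presenting class, cDC1, which requires Batf3 and carries the receptors Xcr1 and Clec9a, and a class that mainly primes CD4 T cells, cDC2. On activation DCs switch on Ccr7, the receptor that guides them along Ccl19 and Ccl21 to lymph nodes. Several of these genes are also used outside DCs. Ccr7 marks naive T cells and many B cells, Ccr9 marks gut-homing and thymic T cells, Tcf4 is active in B cells and many stromal cells, and Zbtb46 is made by endothelial and early erythroid cells.

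The upstream sequence of 4 subset markers is shown because Tcf4 binds E-boxes (CANNTG) and Batf3 belongs to the AP-1 family (TGANTCA), so both regulators are themselves among the genes measured. Each run holds the 250 bases before a RefSeq transcript start (GRCm38.p6, 5′ to 3′ on the gene's strand), with E-boxes in capitals. RefSeq windows were matched for 6 of the 8 genes.
Siglech chr7:55767934-55768183 (+ strand): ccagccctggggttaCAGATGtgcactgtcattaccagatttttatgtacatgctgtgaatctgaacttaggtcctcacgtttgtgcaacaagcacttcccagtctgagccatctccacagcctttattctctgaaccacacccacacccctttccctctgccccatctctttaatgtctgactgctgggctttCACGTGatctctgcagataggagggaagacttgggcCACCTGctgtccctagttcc
Ccr9 chr9:123766961-123767210 (+ strand): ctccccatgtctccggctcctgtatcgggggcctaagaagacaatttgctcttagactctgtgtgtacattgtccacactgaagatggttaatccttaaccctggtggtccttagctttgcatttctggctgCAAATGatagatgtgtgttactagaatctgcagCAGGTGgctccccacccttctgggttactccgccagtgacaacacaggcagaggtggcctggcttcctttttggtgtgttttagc
Clec9a chr6:129408612-129408861 (+ strand): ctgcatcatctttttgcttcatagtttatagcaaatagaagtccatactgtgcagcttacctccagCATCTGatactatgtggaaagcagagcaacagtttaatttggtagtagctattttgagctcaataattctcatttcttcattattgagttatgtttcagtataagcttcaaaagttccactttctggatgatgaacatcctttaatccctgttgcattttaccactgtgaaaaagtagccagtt
Xcr1 chr9:123862030-123862279 (- strand): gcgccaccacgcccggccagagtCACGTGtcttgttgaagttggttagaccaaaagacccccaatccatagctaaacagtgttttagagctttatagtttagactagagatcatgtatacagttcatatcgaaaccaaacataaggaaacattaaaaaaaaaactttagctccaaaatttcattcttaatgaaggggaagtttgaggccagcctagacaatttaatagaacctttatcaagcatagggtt
The Siglech window held 3 E-boxes, at -235, -56 and -20 from the start, and the Ccr9 window held 2, at -118 and -85. The Clec9a window held 1, at -184, and the Xcr1 window held 1, at -227. An E-box lies in 66.2% of all 32851 promoter windows of this length, on either strand, and the AP-1 letters in 6.75%. None of these 4 windows held the AP-1 letters. Of the windows not printed, that of Zbtb46, before a start inside the gene, held 5 E-boxes and 1 AP-1 match at -61. That of Batf3 held 2 E-boxes and no AP-1 match. The Ccr9 and Batf3 windows also lie inside their genes, which begin at 123678439 and 191097847 in GENCODE M21. For Batf3 no transcript of that annotation starts at the base after the window.

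Library totals ran from 31086184 to 39925495 counts in BM and from 24876074 to 45300263 in ATM. A gene was called when edgeR's quasi-likelihood test gave a Benjamini-Hochberg adjusted p under 0.05 and a change of more than 2-fold, and values are given as normalized counts, which correct for library size. The ATM libraries labelled Vehicle stood apart. Csf1r, the receptor that macrophages depend on, averaged 1579 normalized counts in Vehicle against 18149.8 in WT. Adgre1, which encodes the F4/80 antigen used for sorting, averaged 1404 against 6913, while the macrophage gene Cd68 averaged 17462 against 8681. Summed neutrophil markers stood at 19010 to 20275 CPM (counts scaled to library size) in Vehicle and 9787 to 10080 in Combo, against 168 to 352 in the 3 other groups. Summed endothelial markers stood at 1924 to 2075 CPM in Vehicle against 615 to 859 elsewhere. Each ATM comparison with Vehicle rests on the Vehicle libraries. The ATM WT libraries differed too, with summed epithelial markers (epididymis, pancreas) at 3431 to 3585 CPM against 206 to 636 in every other group. The ATM comparisons with WT rest on those libraries. What either set contributed to the results below was not tested. In bulk RNA, fewer cells of a type and less RNA per cell cannot be told apart.

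Compared per kilobase of exon, Ccr7 had the highest mean level of the 8 genes over the 15 libraries in both tissues, at 6.56 CPM per kb in BM and 110.7 CPM per kb in ATM. Siglech followed in BM at 4.38 CPM per kb, and Tcf4 and Zbtb46 followed in ATM at 3.82 and 3.70. Xcr1 was lowest in BM at 0.0568 CPM per kb. Clec9a was lowest in ATM at 0.412 CPM per kb, next to Xcr1 at 0.465, Ccr9 at 0.585 and Siglech at 0.700. These receptors were thus the scarcest of the 8 genes in ATM, while Batf3 stood at 2.18 CPM per kb. Between tissues, Siglech and Clec9a were lower in ATM than in BM, and Xcr1, Batf3 (0.374 in BM) and Tcf4 were higher. Ccr9 was alike, at 0.580 in BM. The exon length joins the exons of all transcripts of a gene, so genes with many transcripts can come out lower.

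In BM, Ccr7 and Clec9a fell in each of the 3 treated groups against Vehicle, Ccr9 and Batf3 fell with GLP-1R agonist and Combo, Zbtb46 rose with GLP-1R agonist, and Xcr1 rose with each single agent from a few counts. In Vehicle against WT 2 of the 8 genes passed, both lower (Siglech and Xcr1), against 19.5% of all genes in either direction and 10% lower. With GLP-1R agonist against Vehicle 6 passed, 2 higher (Zbtb46 and Xcr1) and 4 lower (Ccr7, Clec9a, Ccr9 and Batf3), against 16.7% of all genes. With anti–IL-17A antibody 3 passed, 1 higher (Xcr1) and 2 lower (Ccr7 and Clec9a), against 16.1%. With Combo 4 passed, all lower (Ccr7, Clec9a, Ccr9 and Batf3), against 17.7% in either direction and 11.1% lower, and relative to WT 5 passed, the same 4 and Siglech, all lower, against 14.3% and 9.93% lower. The comparisons with Vehicle share its 3 libraries. The median log2 fold change of the 8 genes was -0.05 in Vehicle against WT, -0.74 with GLP-1R agonist, -0.26 with anti–IL-17A antibody and -1.14 with Combo, beside medians over all genes between -0.02 and 0.02. Smaller shifts were common in this table. With no fold limit 3 of the 8 genes passed in Vehicle against WT, 8 with GLP-1R agonist, 6 with anti–IL-17A antibody, 7 with Combo and 7 in Combo against WT, beside 76.6%, 72.8%, 73%, 73.8% and 73.3% of all genes. The libraries of the 2 groups did not overlap for 5, 8, 7, 7 and 7 of the 8 genes in that order, beside 75.8%, 75.5%, 76%, 75.7% and 73.3% of all genes.

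Siglech, a surface receptor of pDCs, fell in BM by more than 2-fold in Vehicle relative to WT, whereas Ccr9 and Tcf4 did not pass the test there. Siglech stood at 862, 916 and 964 normalized counts in WT, 414, 379 and 404 in Vehicle, 328, 298 and 241 in GLP-1R agonist, 694, 703 and 703 in anti–IL-17A antibody, and 291, 289 and 251 in Combo. WT was highest, anti–IL-17A antibody came next, and neither overlapped another group. The log2 fold change of Vehicle against WT was -1.19 (SE 0.0795, edgeR adjusted p = 6.81e-17). With anti–IL-17A antibody Siglech was 0.81 above Vehicle on the log2 scale (SE 0.081, edgeR adjusted p = 1.15e-11), within the 2-fold limit, and it stayed below WT. GLP-1R agonist and Combo were lower than Vehicle, with log2 fold changes of -0.46 and -0.52, also within the limit, and their difference from each other did not pass (edgeR adjusted p = 0.542).

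Ccr9, a chemokine receptor of pDCs and of gut-homing T cells, separated the groups differently. Its normalized counts were 316, 307 and 297 in WT, 290.3, 285 and 269.9 in Vehicle, 125, 138 and 100.2 in GLP-1R agonist, 246, 223 and 244 in anti–IL-17A antibody, and 95.7, 80.5 and 93.9 in Combo. WT and Vehicle lay close together (log2 fold change -0.12, edgeR adjusted p = 0.273), and every library of GLP-1R agonist and Combo lay well under both. Ccr9 fell by 1.21 on the log2 scale with GLP-1R agonist (SE 0.116, edgeR adjusted p = 3.67e-12) and by 1.64 with Combo (SE 0.124, edgeR adjusted p = 3.35e-15). With anti–IL-17A antibody the difference was -0.25 (edgeR adjusted p = 0.0353), within the limit. Siglech and Ccr9 therefore did not share an order of groups, since anti–IL-17A antibody lay above Vehicle for Siglech and below it for Ccr9. Summed T cell markers in BM stood at 81 to 84 CPM in Vehicle, 115 to 119 in GLP-1R agonist and 46.9 to 50.4 in Combo. Of the exon length of Ccr9, 21.5% is shared with other genes, among them Slc6a20a, and a read there counts for each gene. Slc6a20a averaged 167 normalized counts in Vehicle, 344 in GLP-1R agonist, 288 in anti–IL-17A antibody and 197 in Combo, each treated mean above Vehicle where that of Ccr9 was below.

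Tcf4 stood at 1522, 1172 and 1338 normalized counts in WT, 1356, 1343 and 1439.6 in Vehicle, 979, 1026 and 997 in GLP-1R agonist, 1087, 1206 and 1137 in anti–IL-17A antibody, and 793, 696 and 789 in Combo. Vehicle lay within the WT range, and the Combo libraries were lowest without overlap. Against Vehicle the log2 fold change of Tcf4 was -0.86 in Combo (SE 0.0717, edgeR adjusted p = 1.21e-11), -0.46 in GLP-1R agonist and -0.27 in anti–IL-17A antibody, each past the adjusted p but within the 2-fold limit. Summed B cell markers, a list of cells that also use Tcf4, stood at 1374 to 1409 CPM in WT, 394 to 413 in Vehicle, 128 to 131 in GLP-1R agonist, 425 to 434 in anti–IL-17A antibody and 131 to 137 in Combo, and their part in the Tcf4 values was not tested.

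**Figure D1:**
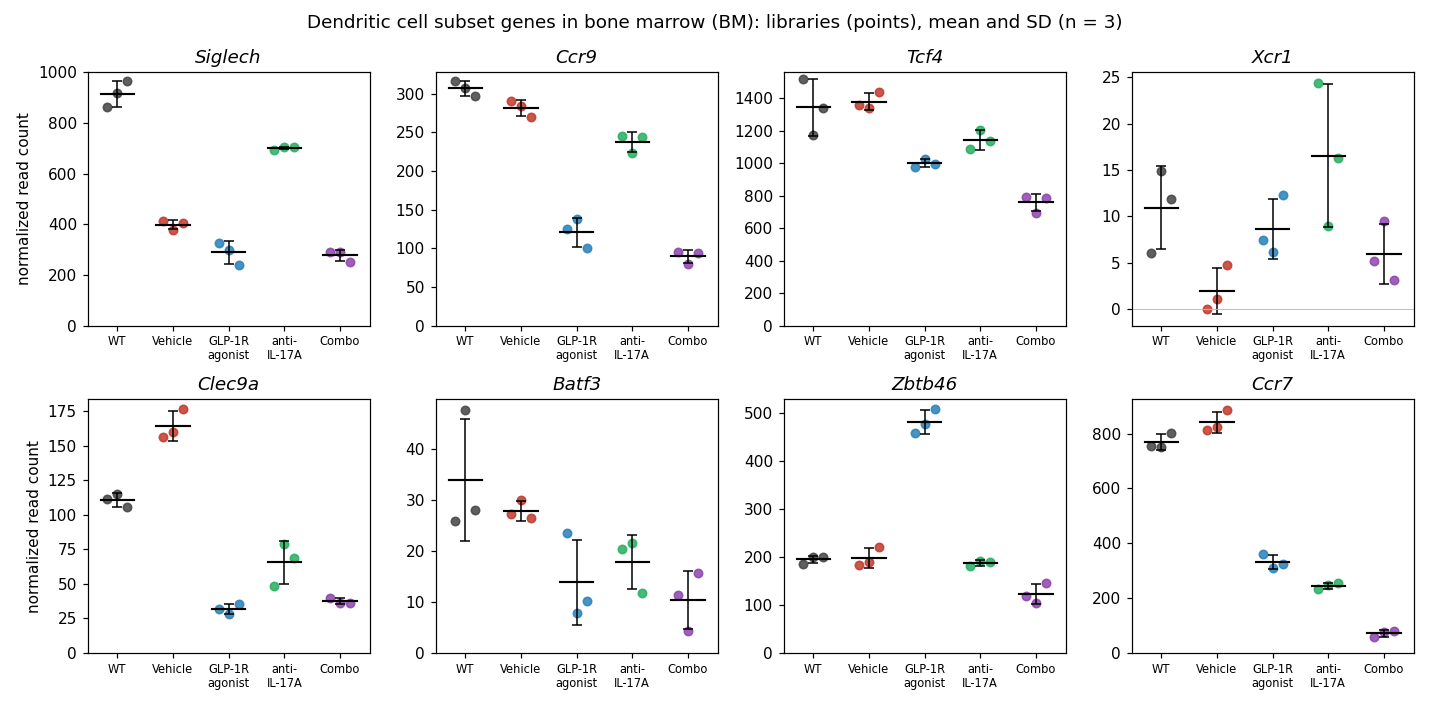
Normalized counts of the 8 DC genes in the 15 BM libraries, 1 panel per gene, with each point a library and the bars showing mean and SD of 3. Siglech separates WT and anti–IL-17A antibody from the other groups, Ccr7 steps down from Vehicle through both single agents to Combo, and Zbtb46 is highest in GLP-1R agonist.

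Among the cDC1 genes in BM, Clec9a was the one with counts high enough for a steady comparison. Clec9a, a receptor that recognizes actin exposed by dead cells, stood at 112, 115 and 106 normalized counts in WT, 156, 160.0 and 176 in Vehicle, 31.9, 28.0 and 35.8 in GLP-1R agonist, 48.7, 79.1 and 68.9 in anti–IL-17A antibody, and 40.1, 36.0 and 36.5 in Combo. Vehicle was highest, and all 3 treated groups lay under both Vehicle and WT without overlap. Relative to Vehicle, Clec9a fell by 2.37 on the log2 scale with GLP-1R agonist (SE 0.188, edgeR adjusted p = 1.8e-14), by 1.31 with anti–IL-17A antibody (SE 0.167, edgeR adjusted p = 5.11e-09) and by 2.12 with Combo (SE 0.186, edgeR adjusted p = 2.92e-13). Vehicle lay above WT by 0.57 (SE 0.157, edgeR adjusted p = 0.00141), within the limit. Clec9a shares 5.59% of its exon length with Clec1b on the same strand. Clec1b averaged 183 normalized counts in WT, 132 in Vehicle, 233 in GLP-1R agonist, 97.1 in anti–IL-17A antibody and 58.5 in Combo, so relative to Vehicle its mean went the opposite way to Clec9a with GLP-1R agonist and the same way with the antibody and Combo.

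Xcr1, the receptor through which cDC1s follow Xcl1, was close to the limit of detection in BM. Its raw counts were 7, 15 and 11 in WT, 0, 1 and 4 in Vehicle, 8, 7 and 12 in GLP-1R agonist, 24, 10 and 18 in anti–IL-17A antibody, and 5, 9 and 3 in Combo. Every Vehicle library had fewer counts than any WT, GLP-1R agonist or anti–IL-17A antibody library. Xcr1 fell by 2.43 on the log2 scale in Vehicle against WT (SE 0.769, edgeR adjusted p = 0.00456) and rose by 3.03 with anti–IL-17A antibody against Vehicle (SE 0.707, edgeR adjusted p = 0.000226). It was higher by 2.10 with GLP-1R agonist (SE 0.801, edgeR adjusted p = 0.0184), a call that ended without Vehicle replicate 1 (adjusted p = 0.0945), Vehicle replicate 2 (0.0707) or GLP-1R agonist replicate 3 (0.0786). Combo against Vehicle was 1.58 (edgeR adjusted p = 0.101), and without Vehicle replicate 3, which held 4 of the 5 Vehicle counts, it was 3.12 and passed (0.0257). Without that library Xcr1 was -4.00 in Vehicle against WT, 3.67 with GLP-1R agonist and 4.61 with anti–IL-17A antibody. So Vehicle was high for Clec9a and low for Xcr1, both markers of cDC1.

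Batf3, the transcription factor that cDC1s require, stood at 26.0, 47.6 and 28.0 normalized counts in WT, 27.2, 30.1 and 26.4 in Vehicle, 23.4, 7.89 and 10.2 in GLP-1R agonist, 20.3, 21.6 and 11.8 in anti–IL-17A antibody, and 11.3, 4.24 and 15.6 in Combo. Vehicle lay inside the WT range, and the Combo libraries lay below both. Batf3 fell by 1.41 on the log2 scale in Combo against Vehicle (SE 0.434, edgeR adjusted p = 0.00382) and by 1.68 against WT (SE 0.414, edgeR adjusted p = 0.000418). With GLP-1R agonist its log2 fold change was -1.01 (SE 0.405, edgeR adjusted p = 0.0246), a call that ended without Vehicle replicate 2 (-0.95, adjusted p = 0.0665), GLP-1R agonist replicate 2 (-0.71, 0.146) or GLP-1R agonist replicate 3 (-0.85, 0.0913), and that grew to -1.62 without GLP-1R agonist replicate 1. With anti–IL-17A antibody the difference was -0.64 (edgeR adjusted p = 0.133).

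Zbtb46, which sets cDCs apart from other myeloid cells, rose in BM with GLP-1R agonist, where 4 other members fell. It stood at 185, 199 and 199 normalized counts in WT, 183, 190.1 and 221 in Vehicle, 457, 477 and 508 in GLP-1R agonist, 181, 192 and 189.5 in anti–IL-17A antibody, and 118, 105 and 146 in Combo. The GLP-1R agonist libraries were far above all others, the Combo libraries were below all others, and the 3 remaining groups overlapped. Zbtb46 rose by 1.28 on the log2 scale with GLP-1R agonist (SE 0.103, edgeR adjusted p = 2.61e-14). Combo against Vehicle was -0.68 (SE 0.124, edgeR adjusted p = 5.56e-06), within the limit, and against GLP-1R agonist it was -1.96 (SE 0.11, edgeR adjusted p = 3.01e-19). Erythroid markers were also highest in GLP-1R agonist, where 5 of 6 tested passed as higher than Vehicle and their sum stood at 2532 to 2575 CPM, against 885 to 909 in Vehicle, 1286 to 1387 in WT, 1716 to 1771 in anti–IL-17A antibody and 1158 to 1188 in Combo. Anti–IL-17A antibody thus had more erythroid marker RNA than Vehicle with no difference in Zbtb46. The part of erythroid cells in the Zbtb46 values was not tested. The genes whose level followed Zbtb46 most closely over the 15 BM libraries were Mllt3 (r = 0.968), Glrx5 (r = 0.966) and Arl4a, given as a description, since the libraries share group, depth and composition.

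Ccr7 spanned the widest log2 range between BM groups of the 8 genes. It stood at 753, 752 and 803 normalized counts in WT, 814, 825 and 884 in Vehicle, 361, 310.3 and 323 in GLP-1R agonist, 232, 249 and 254 in anti–IL-17A antibody, and 57.6, 77.3 and 79.3 in Combo. Vehicle and WT differed little (0.13 on the log2 scale, edgeR adjusted p = 0.104), and each treated group formed a lower step of its own, with Combo lowest. Against Vehicle, Ccr7 fell by 1.34 on the log2 scale with GLP-1R agonist (SE 0.079, edgeR adjusted p = 1.39e-18), by 1.78 with anti–IL-17A antibody (SE 0.0821, edgeR adjusted p = 5.05e-22) and by 3.56 with Combo (SE 0.103, edgeR adjusted p = 3.11e-29), the last an 11.8-fold lower level. Combo against GLP-1R agonist was -2.21 (SE 0.113, edgeR adjusted p = 1.59e-20) and against anti–IL-17A antibody -1.78 (SE 0.118, edgeR adjusted p = 2.53e-16), pairs in which 13.2% and 5.67% of all genes passed. B cell and T cell marker sums did not share this order, since the B cell sum was nearly equal in GLP-1R agonist and Combo and the T cell sum was highest in GLP-1R agonist. Their part in Ccr7 was not tested.

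**Figure D2:**
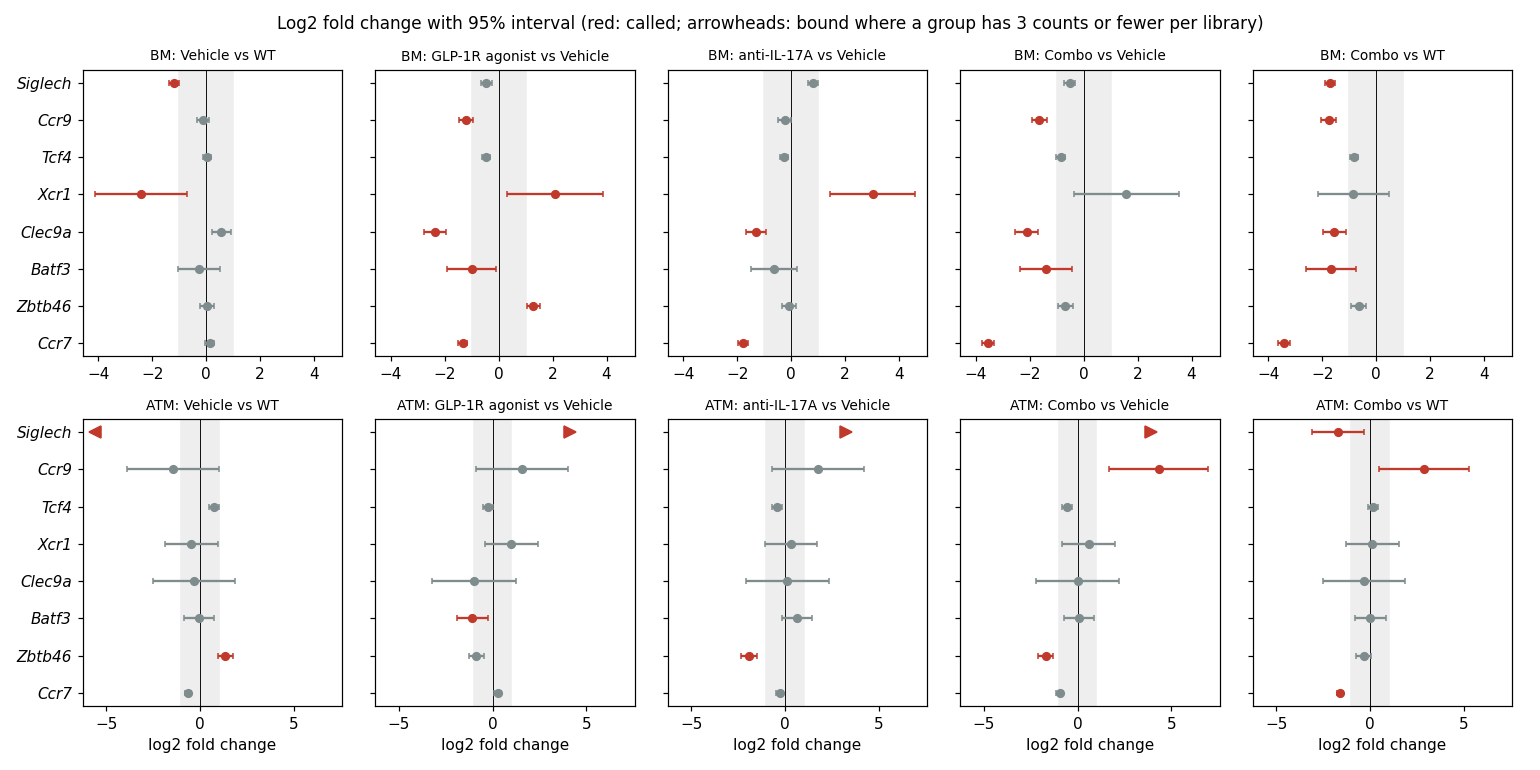
Log2 fold changes of the 8 DC genes with 95% intervals in the 5 comparisons, BM in the upper row and ATM in the lower row. Red points passed both limits, arrowheads mark bounds for Siglech in ATM where every Vehicle library was at 0, and the grey band spans -1 to 1. In BM most points of the GLP-1R agonist and Combo panels lie left of 0 with Zbtb46 apart in GLP-1R agonist, and in ATM the intervals of Xcr1 and Clec9a all cross 0.

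Lists of further DC genes placed these 8 beside their subset in BM. Of all BM genes, 19.5% were called in Vehicle against WT (10% lower) and 17.7% in Combo against Vehicle (11.1% lower). With GLP-1R agonist it was 16.7% and with anti–IL-17A antibody 16.1%. The list counts in BM are to be read beside these shares. In Vehicle against WT, 13 other pDC genes were tested, of which 2 were higher and 4 lower. Bst2, an interferon-induced surface protein, rose by 3.76 on the log2 scale and the RNA sensor Tlr7 by 1.61, while the transcription factor Spib fell by 1.87 and Ly6d by 1.37, so the list did not move one way with Siglech. Combo against Vehicle had 9 of the 13 lower and none higher, among them Bst2 (-5.22), the protease Klk1 (-2.47), Ly6d (-2.19) and the DNA sensor Tlr9 (-2.01). The list medians, with members, were -1.28 with GLP-1R agonist and -1.63 with Combo, beside all-gene medians of 0.01 and 0.02.

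Other cDC1 genes were mixed. Of 12 tested in Vehicle against WT, 3 were higher, among them the RNA sensor Tlr3 (2.37), the transcription factor Id2 (2.09) and Rab7b (1.75), and 2 were lower, with Snx22 at -1.14. In Combo against Vehicle 2 were higher, among them Ly75 (1.63), the uptake receptor DEC-205, and 4 were lower, among them Tlr3 (-2.83) and Id2 (-1.20). For genes of cDC2s, Cd209a averaged 263 normalized counts in WT and 0.716 in Vehicle, the transcription factors Klf4 and Irf4 fell by 2.85 and 2.45 in Vehicle against WT, and 5 of the 11 tested were lower there with none higher. Of these 11, 4 were higher in Combo than in Vehicle, among them Klf4 (2.72) and the lectin Mgl2 (2.15), and 2 lower, with Relb at -1.82.

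The list shared by cDCs, besides Zbtb46, held mainly genes of MHC class II presentation. With GLP-1R agonist 6 of 10 fell and none rose, the opposite direction to Zbtb46. In Combo against Vehicle 7 of 10 fell, among them H2-Eb1 (-2.37), H2-Aa (-2.24), Cd74 (-2.15) and H2-Ab1 (-2.14), a set that B cells also express in quantity. The list of activated and migratory DCs, to which Ccr7 belongs, had 8 of 13 other genes higher in Vehicle against WT and none lower, with Cacnb3 (4.15), the actin-bundling protein Fscn1 (3.35), the chemokine Ccl22 (3.08) and Il15ra (2.51) leading, a list median of 1.26 and Ccr7 itself at 0.13. Under treatment Ccr7 and the list moved in the same direction, with 11 of 13 lower with GLP-1R agonist, 11 with anti–IL-17A antibody and 12 with Combo, where Ccl22 (-3.93), Fscn1 (-3.81), Cacnb3 (-3.65) and the costimulatory receptor Cd40 (-3.65) led.

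Growth factors and ligands were read as well. Of 17 growth and lineage factors of DCs in BM, 5 were higher and 3 lower in Vehicle against WT. In Combo against Vehicle 2 were higher and 2 lower. Of all BM genes, 19.5% and 17.7% were called in these comparisons, in either direction. The cytokine receptor subunit Csf2rb2 rose by 1.83 and the transcription factor Mycl fell by 1.93 in Vehicle, while in Combo the DC growth factor Flt3l fell by 1.22 and Id2 by 1.20, and the transcriptional regulators Cbfa2t3 and Gfi1 rose by 1.13 and 1.08. Of 4 ligands of the member receptors 3 were in the tables. Ccl19, a ligand of Ccr7, averaged 7.15 normalized counts in WT, 109 in Vehicle and 6.95 in Combo (log2 fold change 3.91 in Vehicle against WT and -3.94 in Combo against Vehicle). Xcl1, the ligand of Xcr1, averaged 213 in WT, 48.8 in Vehicle and 53.0 in Combo (-2.13 in Vehicle against WT), so ligand and receptor were both lower in Vehicle. Ccl25, the ligand of Ccr9, did not pass the fold limit in these comparisons.

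In ATM the members that passed were mainly Siglech and Zbtb46, with Ccr9 in Combo. In Vehicle against WT 2 of the 8 genes passed, 1 higher (Zbtb46) and 1 lower (Siglech), against 35.4% of all genes. With GLP-1R agonist against Vehicle 2 passed (Siglech higher, Batf3 lower), against 31.8%, and with anti–IL-17A antibody 2 passed (Siglech higher, Zbtb46 lower), against 35.5%. With Combo 3 passed (Siglech and Ccr9 higher, Zbtb46 lower), against 26.4%, and in Combo against WT 3 passed (Ccr9 higher, Siglech and Ccr7 lower), against 21.6%. With 8 genes, these counts are near the background. The count in Combo against WT fell to 1 or 2 when any 1 of its 6 libraries was left out. With no fold limit 4, 4, 4, 5 and 3 of the 8 genes passed in that order, beside 56.9%, 53.8%, 58.1%, 48.7% and 41.1% of all genes. The libraries of the 2 groups did not overlap for 4, 4, 4, 5 and 5 of the 8 genes, beside 62.9%, 59.4%, 61.5%, 52.5% and 56.1% of all genes. The median log2 fold change over all ATM genes was -0.21 in Vehicle against WT, 0.19 with GLP-1R agonist and 0.17 with anti–IL-17A antibody, so ATM values are to be read relative to these shifts.

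Siglech in ATM was listed at 0 in every Vehicle library and was found in every other library. Its raw counts were 107, 266 and 212 in WT, 0, 0 and 0 in Vehicle, 64, 28 and 144 in GLP-1R agonist, 28, 64 and 66 in anti–IL-17A antibody, and 44, 104 and 64 in Combo. WT lay above the 2 groups that received the antibody without overlap, and its lowest library (127 normalized counts) was just above the highest of GLP-1R agonist (126). With 3 counts per library taken as the floor, Vehicle was at least 49.5-fold lower than WT (edgeR adjusted p = 3.37e-06), and GLP-1R agonist, anti–IL-17A antibody and Combo were at least 17.6-fold, 9.4-fold and 14.9-fold higher than Vehicle (edgeR adjusted p = 1.71e-05, 4.84e-05 and 2.62e-05). Against WT, the log2 fold change of Siglech was -2.39 with anti–IL-17A antibody (SE 0.634, edgeR adjusted p = 0.00905), where 18.7% of all genes passed, and -1.73 with Combo (SE 0.619, edgeR adjusted p = 0.0395). The Combo call ended without WT replicate 2 (adjusted p = 0.133), WT replicate 3 (0.0944), Combo replicate 1 (0.125) or Combo replicate 3 (0.0965). GLP-1R agonist against WT was -1.48 (edgeR adjusted p = 0.0788).

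Ccr9 in ATM was high in Combo alone of the 5 groups. It had 74, 32 and 135 raw counts in WT, 0, 0 and 67 in Vehicle, 146, 88 and 38 in GLP-1R agonist, 86, 94 and 258 in anti–IL-17A antibody, and 964, 581 and 659 in Combo. No Combo library overlapped any other, and the counts within the other groups were widely spread. Ccr9 rose by 4.32 on the log2 scale in Combo against Vehicle (SE 1.18, edgeR adjusted p = 0.00676), and without Vehicle replicate 3 the fitted value rested on 2 libraries at 0 and was 12.4. Against WT it was 2.88 (SE 1.08, edgeR adjusted p = 0.0445), a call that ended without any 1 of the 6 libraries (adjusted p = 0.0597 to 0.139) and in DESeq2 (0.0826). Combo against GLP-1R agonist was 2.74 (edgeR adjusted p = 0.0552) and against anti–IL-17A antibody 2.55 (edgeR adjusted p = 0.0893). Without Vehicle replicate 3, whose 67 counts were the only ones in that group, Vehicle itself was called lower than WT (edgeR adjusted p = 0.00039), GLP-1R agonist (0.000357) and anti–IL-17A antibody (0.000258), with the other 2 Vehicle libraries at 0. T cell markers moved alongside, with 9 of 9 tested higher in Combo than in Vehicle and sums of 1076 to 1098 CPM in Combo, 142 to 165 in Vehicle, 318 to 337 in WT, 491 to 500 in GLP-1R agonist and 561 to 577 in anti–IL-17A antibody. Ncr1, a receptor of natural killer cells, followed Ccr9 most closely over the 15 libraries (r = 0.903), ahead of Prmt3 and Tvp23a. Siglech, the other pDC surface marker, was no higher in Combo than in GLP-1R agonist (-0.24, edgeR adjusted p = 0.796). The part of T cells in the Ccr9 values was not tested.

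Tcf4 in ATM stood at 2756, 2658 and 2678 normalized counts in WT, 5183, 4885 and 3436 in Vehicle, 3298, 4069.7 and 3934 in GLP-1R agonist, 3441, 3235 and 3414 in anti–IL-17A antibody, and 3209, 2972 and 2951 in Combo. Every Vehicle library lay above WT and Combo, and Vehicle overlapped both single agents. Vehicle was 0.74 above WT on the log2 scale (SE 0.12, edgeR adjusted p = 8.07e-05), and Combo against Vehicle was -0.56 (SE 0.12, edgeR adjusted p = 0.00104), both within the limit, while Combo against WT was 0.17 (edgeR adjusted p = 0.269). Siglech was thus at 0 in the group with the highest mean Tcf4. Summed endothelial markers were also highest in Vehicle, and the part of endothelial cells in the Tcf4 values was not tested.

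**Figure D3:**
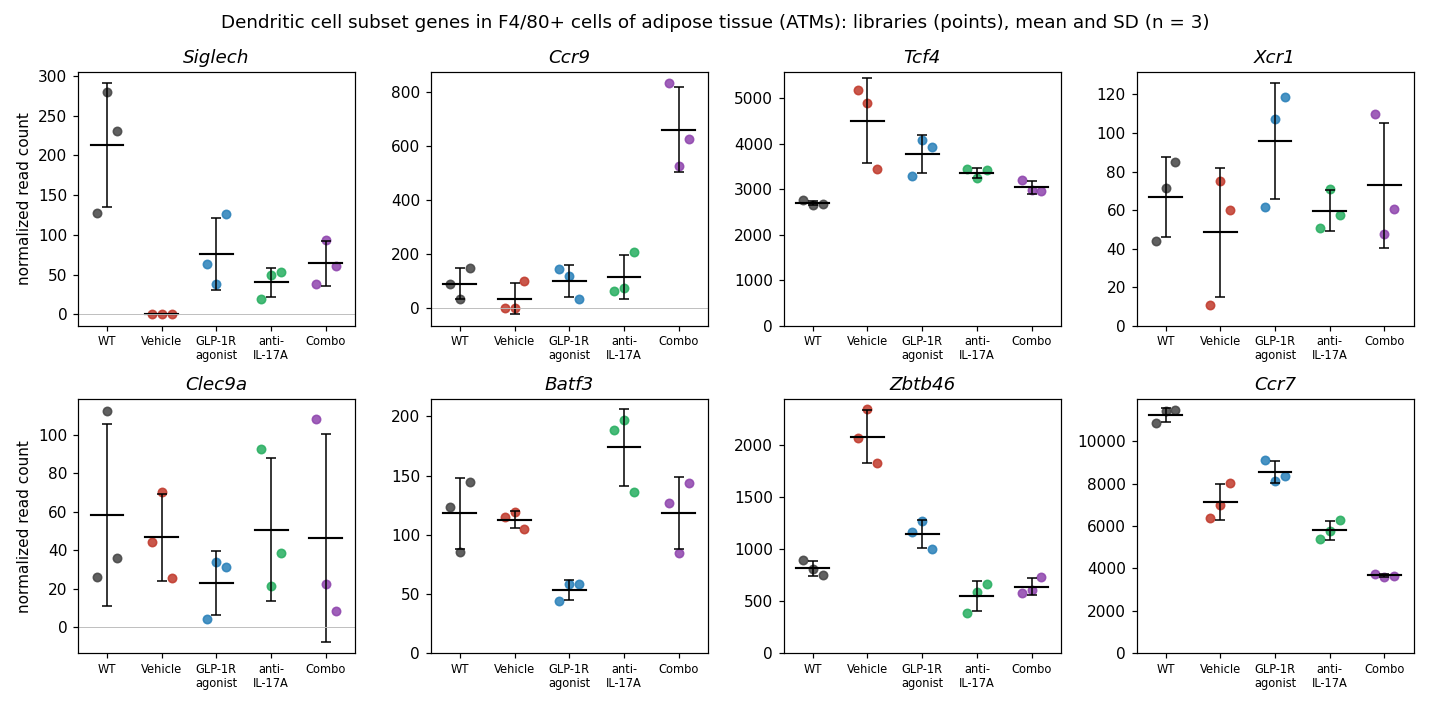
Normalized counts of the 8 DC genes in the 15 ATM libraries, 1 panel per gene, with each point a library and the bars showing mean and SD of 3. Siglech lies at 0 in Vehicle, Ccr9 stands out in Combo, Zbtb46 is highest in Vehicle, and Xcr1 and Clec9a overlap across groups.

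The cDC1 receptors gave no call in ATM. Xcr1 stood at 44.1, 71.5 and 85 normalized counts in WT, 10.7, 74.9 and 59.9 in Vehicle, 61.7, 107 and 119 in GLP-1R agonist, 50.5, 71.2 and 57.5 in anti–IL-17A antibody, and 109.7, 47.9 and 60.7 in Combo. Clec9a stood at 26.2, 113 and 36.0 in WT, 44.1, 70.5 and 25.4 in Vehicle, 3.98, 33.9 and 31.4 in GLP-1R agonist, 92.5, 21.4 and 38.3 in anti–IL-17A antibody, and 108, 22.6 and 8.53 in Combo. The groups overlapped for both genes. The largest fitted difference between neighbouring groups did not pass for either gene, so a change of the size seen for Clec9a in BM could not be assessed at this spread. Batf3 was steadier, at 124, 85.2 and 145 normalized counts in WT, 115, 119 and 105 in Vehicle, 43.8, 58.3 and 58.5 in GLP-1R agonist, 189, 197 and 137 in anti–IL-17A antibody, and 127, 84.9 and 144 in Combo. The GLP-1R agonist libraries lay below all others. The log2 fold change of Batf3 was -1.08 with GLP-1R agonist against Vehicle (SE 0.372, edgeR adjusted p = 0.0235), where the median of all genes was 0.19, and -1.14 against WT (SE 0.372, edgeR adjusted p = 0.0259), where 15.1% of all genes passed. The call against Vehicle ended without GLP-1R agonist replicate 1 (-0.95, adjusted p = 0.0786) and in a fit of those 2 groups alone (-1.13, adjusted p = 0.0786).

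Zbtb46 in ATM was highest in Vehicle. It stood at 894, 808 and 749.6 normalized counts in WT, 2067, 2345 and 1832 in Vehicle, 1163, 1267 and 999 in GLP-1R agonist, 387, 588 and 665 in anti–IL-17A antibody, and 576, 608 and 732 in Combo. Vehicle lay above GLP-1R agonist, and GLP-1R agonist above the other 3 groups, without overlap. Zbtb46 rose by 1.35 on the log2 scale in Vehicle against WT (SE 0.181, edgeR adjusted p = 1.18e-05), where the median of all genes was -0.21, and fell by 1.93 with anti–IL-17A antibody (SE 0.184, edgeR adjusted p = 2.57e-07) and by 1.70 with Combo (SE 0.183, edgeR adjusted p = 1.22e-06). With GLP-1R agonist its log2 fold change was -0.87 (SE 0.179, edgeR adjusted p = 0.000758), within the limit. Against WT, anti–IL-17A antibody was -0.58 (edgeR adjusted p = 0.0189), within the limit, and Combo was -0.36 (edgeR adjusted p = 0.13). Endothelial markers were also highest in Vehicle, where 5 of 8 were higher than in WT and 1 lower, and 6 of 8 were lower in Combo than in Vehicle with none higher. The endothelial sum was 730 to 752 CPM in GLP-1R agonist and 615 to 691 in Combo, a smaller gap than that of Zbtb46. The part of endothelial cells in the Zbtb46 values was not tested.

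**Figure D4:**
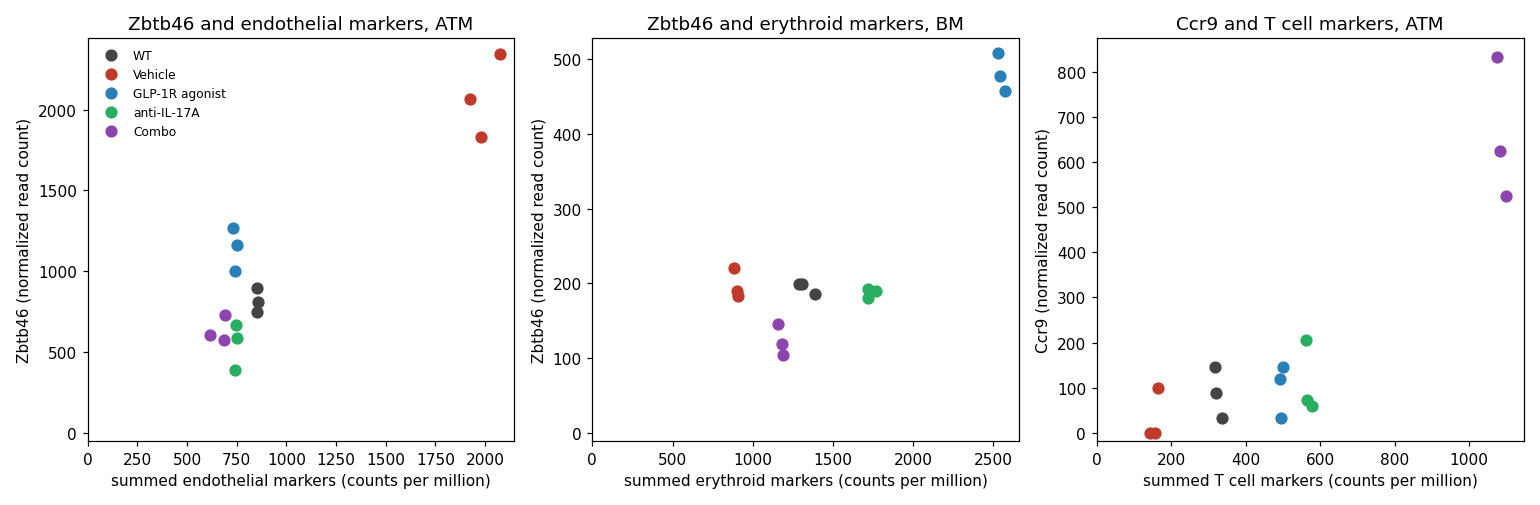
Normalized counts of Zbtb46 against summed endothelial markers in ATM, of Zbtb46 against summed erythroid markers in BM, and of Ccr9 against summed T cell markers in ATM, with each point a library colored by group and sums in CPM. The highest Zbtb46 group has the highest marker sum in both tissues, and the highest Ccr9 group has the highest T cell sum.

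Ccr7 in ATM stood at 10840.2, 11424 and 11452 normalized counts in WT, 6357, 6975 and 8021 in Vehicle, 9108, 8108 and 8355 in GLP-1R agonist, 5367, 5748 and 6259 in anti–IL-17A antibody, and 3721, 3609.9 and 3656 in Combo. No group overlapped another, and WT was highest. Against WT, Ccr7 fell by 1.62 on the log2 scale in Combo (SE 0.0786, edgeR adjusted p = 1.6e-10) and stood at -0.66 in Vehicle (SE 0.077, edgeR adjusted p = 2.61e-06), within the limit. Combo against Vehicle was -0.96 (SE 0.0777, edgeR adjusted p = 4.64e-08), just within the limit, and without Vehicle replicate 1 it was -1.03 and passed. Ccr7 fell by 1.22 in Combo against GLP-1R agonist (SE 0.0779, edgeR adjusted p = 5.2e-09), where 18.7% of all genes passed. Combo was the lowest group for Ccr7 in both tissues, while Vehicle lay beside WT in BM and below it in ATM. Summed B cell markers in ATM were also highest in WT, at 353 to 423 CPM. They stood at 105 to 123 in Vehicle, 208 to 211 in GLP-1R agonist, 146 to 167 in anti–IL-17A antibody and 172 to 190 in Combo. The T cell sum was highest in Combo, at 1076 to 1098 CPM, where Ccr7 was lowest. The part of B and T cells in the ATM Ccr7 values was not tested.

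As a description, the genes whose log2 CPM followed each member most closely over 15 libraries (11390 genes compared in BM and 13922 in ATM) differed between the tissues. In BM these were Zeb2 for Siglech (r = 0.979), Nfkbid for Ccr9 (r = 0.974), Scd1 for Tcf4 (r = 0.969), Pyhin1 for Clec9a (r = 0.978), Ccdc134 for Batf3 (r = 0.840) and Acp5 for Ccr7 (r = 0.992). In ATM they were Uggt1 for Siglech (r = 0.981), Nfya for Tcf4 (r = 0.906), Wnt2 for Xcr1 (r = 0.897), Tmc5 for Clec9a (r = 0.802), Atp5k for Batf3 (r = 0.899), Mast4 for Zbtb46 (r = 0.966) and Fbln5 for Ccr7 (r = 0.978). The points share group, depth and composition.

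The wider DC lists in ATM parted from the members. Of all ATM genes, 35.4% were called in Vehicle against WT, 26.4% in Combo against Vehicle and 21.6% in Combo against WT. The list counts in ATM are to be read beside these shares. Of 10 other shared cDC genes, 9 were lower in Vehicle than in WT and none higher, among them Dpp4 (-4.51), the MHC class II activator Ciita (-3.27), H2-DMb2 (-2.54) and H2-DMa (-2.49), so Zbtb46 was the only one of the 11 genes called higher. The list median was -2.32, beside -0.21 for all genes. In Combo against Vehicle 8 of the 10 were higher and none lower, with Ciita (3.12), the integrin Itgax (2.60), Dpp4 (2.43) and H2-DMa (2.15) leading, while in Combo against WT 1 was higher and 2 lower. The activated and migratory list had 8 of 15 other genes higher in Vehicle than in WT and 1 lower, led by Il15ra (2.99), Fscn1 (2.57), Cd40 (2.52) and Cd200 (2.47), where Ccr7 was at -0.66. In Combo against Vehicle 1 was higher and 11 lower, led by Cd200 (-3.35), Il15ra (-3.21), Ccl22 (-2.84) and Fscn1 (-2.46), and in Combo against WT none was higher and 3 lower.

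The pDC list in ATM had 5 of 13 other genes higher and 2 lower in Vehicle against WT, with Klk1 (5.54) and Bst2 (4.18) higher and Bcl11a (-3.65) lower, while Siglech was at 0. Combo against Vehicle had 3 higher and 4 lower, with Bst2 at -4.44 and Ly6d at -3.02. The cDC1 list had 1 of 13 other genes higher and 7 lower in Vehicle against WT, including Wdfy4 (-2.53), which cross-presentation requires, and Cd8a (-2.29), which T cells also express, and 7 higher and 1 lower in Combo against Vehicle, including Snx22 (4.79), Cd8a (4.02) and Cadm1 (2.39), with Tlr3 lower (-3.00). Of 12 cDC2 genes, 2 were higher and 4 lower in Vehicle against WT. Cd209a averaged 678 normalized counts in WT and was listed at 0 in Vehicle, Mgl2 fell by 4.80, and Esam, which endothelial cells also express, rose by 2.81. Combo against Vehicle had 6 higher and 2 lower, including Mgl2 (2.96) and Itgam (2.05), with Esam at -2.82. Of the 17 growth and lineage factors, 3 were higher and 1 lower in Vehicle against WT. Spi1 (2.51), Mycl (1.80) and Stat3 (1.09) were higher and Irf4 (-1.56) was lower. In Combo against Vehicle 3 were higher and 2 lower, with Ikzf1 (1.32) and Irf4 (1.12) higher and Mycl (-5.05) and Stat3 (-1.21) lower. These factor counts were under the share of all genes in the first comparison (35.4%) and near it in the second (26.4%). Against WT, Combo had 5 higher and 1 lower of the other pDC genes, 2 higher and none lower of the cDC1 genes, 3 higher and 2 lower of the cDC2 genes, and 4 higher and 1 lower of the growth and lineage factors. Ccl19 averaged 146 normalized counts in WT, 2810 in Vehicle and 199.6 in Combo, and Xcl1 averaged 274, 45.1 and 578.

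**Figure D5:**
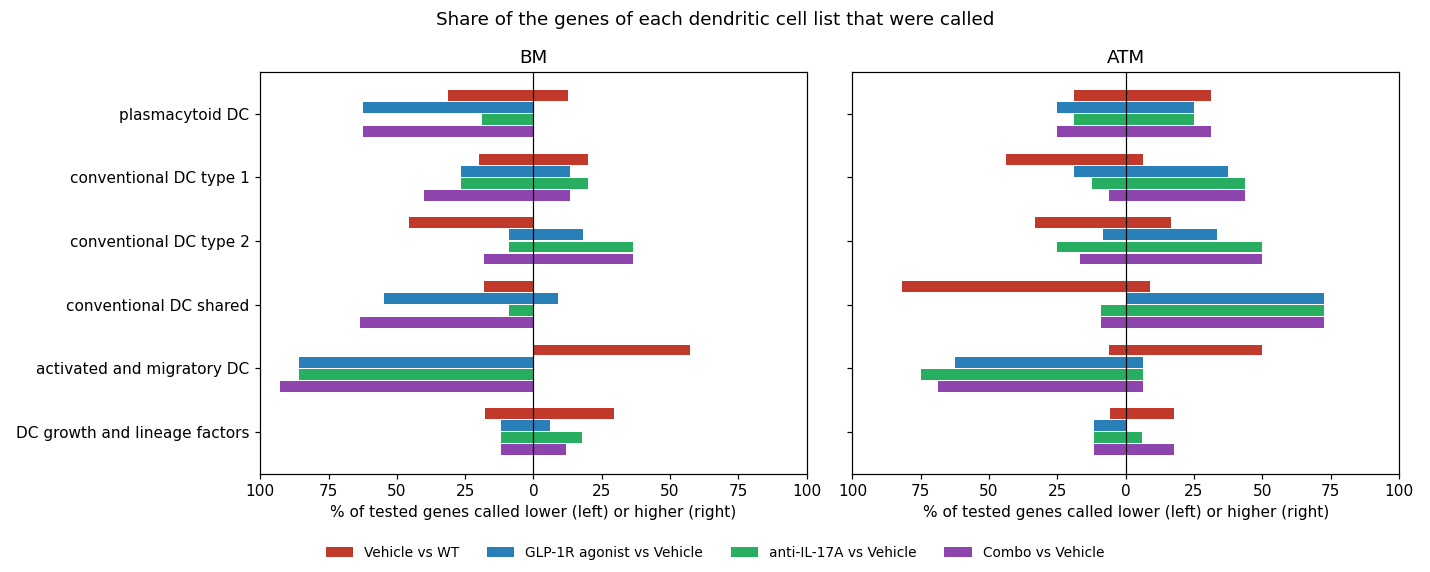
Share of the tested genes of 6 DC lists called lower (left of 0) or higher (right of 0), in percent, for 4 comparisons in BM and ATM. Of all genes, 16.1% to 19.5% were called in these comparisons in BM and 26.4% to 35.5% in ATM, in either direction. In the activated and migratory list more genes are called higher than lower in Vehicle against WT. The same list is mostly lower under each treatment against Vehicle. The shared cDC list falls with GLP-1R agonist and Combo in BM and rises with them in ATM.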

How the data were processed

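Per the labels and the study's methods, the authors made unstranded paired-end libraries from total RNA (RNA integrity above 8), aligned the reads to mm10/GRCm38 with STAR 2.7.2a and counted reads per gene with featureCounts 2.0.1, a read on several genes counting for each. The deposited values are raw counts, 1 table per tissue, which already lack low genes.

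From these, edgeR 4.0.16 (R 4.3.3) was fitted once per tissue to all 15 libraries, with TMM scaling, a robust quasi-likelihood fit and Benjamini-Hochberg adjustment over all genes of the table. A call needed an adjusted p under 0.05 and a change above 2-fold. SE is the absolute log2 fold change divided by the root of F. Normalized counts are counts divided by effective library size times its mean. Where a group was at 0, bounds used 3 counts per library. The scripts were tested on simulated data. Replicate numbers did not pair the samples (same-number correlations -0.083 to 0.19 in BM and -0.046 to 0.036 in ATM). No 2 replicates of a group agreed within counting noise. In BM, WT replicate 1 stood apart, with a chi-square per degree of freedom of 39.5 and 30.3 against the other WT replicates. The WT pair without it gave 3.07, and the largest value in any other BM group was 4.56. Leaving out libraries, DESeq2 1.42.0, other scaling and filters were tried. The 8 members and the lists (7 of DC genes, 8 of other cell types) were chosen with earlier results of these data known. Of each DC list, up to 4 called genes with the largest change were named per tissue, in Vehicle against WT and in Combo against Vehicle, with at least 10 counts on average, and other named genes are the closest by Pearson correlation among genes with at least 50 counts. Members are located in GENCODE M21, which differs from the release the authors counted with. P-values rest on the spread among libraries of the same group, pooled over the 5 groups of a tissue, not on the 2 compared groups alone. As a percentage of a gene's level, edgeR put this spread at 3.51% for the BM table and 32.5% for the ATM table. The BM p-values rest on that small spread. Whether it reflects the variation of separate mice was not tested.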

Additional observations from a re-analysis of the deposited data

Results flagged for a closer look

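Several members differed between the tissues in the same comparison. The difference, ATM minus BM on the log2 scale, was tested for 13076 shared genes in an edgeR fit of all 30 libraries, a test chosen after the values were seen. An adjusted p under 0.05 with a difference above 2-fold was found for 28.7% of shared genes in Vehicle against WT, 26.6% with GLP-1R agonist, 29.3% with anti–IL-17A antibody and 28.1% with Combo, each against Vehicle, and 23.6% in Combo against WT. The tissues were prepared differently (whole marrow against sorted cells), so tissue and preparation cannot be told apart.

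For Siglech the difference was -9.61 in Vehicle against WT, 9.80 with GLP-1R agonist, 7.56 with anti–IL-17A antibody and 9.64 with Combo. These sizes rest on 3 ATM Vehicle libraries at 0, depend on the prior count and are no bounds. For Zbtb46 it was 1.33 in Vehicle against WT, -2.15 with GLP-1R agonist and -1.88 with anti–IL-17A antibody, so GLP-1R agonist went with a higher level in BM and a lower one in ATM.

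For Ccr7 the difference was 1.60 with GLP-1R agonist, 1.45 with anti–IL-17A antibody, 2.64 with Combo and 1.85 in Combo against WT, a smaller drop in ATM than in BM each time, with GLP-1R agonist slightly above Vehicle in ATM. For Ccr9 it was 2.80 with GLP-1R agonist, 6.01 with Combo and 4.70 in Combo against WT. The Ccr9 values against Vehicle rest on raw ATM Vehicle counts of 0, 0 and 67. In ATM alone, the Ccr9 change with GLP-1R agonist (1.58) was not called. For Batf3 the difference was 1.52 with Combo and 1.74 in Combo against WT. Xcr1 with anti–IL-17A antibody (-2.75) rests on few BM counts. Tcf4 differed by 1.04 in Combo against WT. The adjusted p alone was also passed, with a difference within 2-fold, by Ccr7 (-0.79) and Tcf4 (0.70) in Vehicle against WT and by Zbtb46 (-0.98) with Combo.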

How the results depend on the processing

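With no fold limit the members called were 6 with anti–IL-17A antibody and 7 with Combo against Vehicle in BM, and in ATM 4 in Vehicle against WT, 4 with GLP-1R agonist, 4 with anti–IL-17A antibody and 5 with Combo against Vehicle. Requiring 10 counts in every library left 1 call in BM Vehicle against WT and 1 in each of the 5 ATM comparisons, since genes such as Xcr1 in BM and Siglech in ATM were then not tested. Fitting only the 2 groups compared left 1 in BM Vehicle against WT, where Xcr1 was not tested, and 1 in ATM GLP-1R agonist against Vehicle, where Batf3 missed the threshold. Leaving out a library gave 1 to 3 members called in ATM GLP-1R agonist against Vehicle and 1 to 2 in ATM Combo against WT. Over all genes, dropping the fold limit raised the count to between 9717 and 10227 in BM (1913 to 2598 with it) and 7010 to 9914 in ATM (3681 to 6051). Requiring 10 counts lowered it to 1428 from 2151 in BM anti–IL-17A antibody against Vehicle, and in ATM to 3934 from 6034 (Vehicle against WT), 3335 from 5417 (GLP-1R agonist), 3724 from 6051 (anti–IL-17A antibody) and 2064 from 3681 (Combo against WT). Adding the replicate number as a block kept the count of members called in all 10 comparisons, and in BM Vehicle against WT it gave 2595 genes against 2598. The numbers do not pair the samples.

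Sign changes were confined to members that were not called. Without a library, log2 fold changes ran in BM Vehicle against WT from -0.050 to 0.077 for Zbtb46, -0.44 to 0.063 for Batf3 and -0.046 to 0.14 for Tcf4, and in BM anti–IL-17A antibody against Vehicle from -0.13 to 0.0041 for Zbtb46. In ATM they ran from -0.74 to 0.58 for Clec9a and -0.25 to 0.11 for Batf3 in Vehicle against WT, from -0.18 to 0.77 for Xcr1 and -0.64 to 0.55 for Clec9a with anti–IL-17A antibody, from -1.58 to 0.48 for Clec9a and -0.091 to 0.26 for Batf3 with Combo against Vehicle, and from -0.30 to 0.35 for Xcr1, -1.90 to 0.58 for Clec9a and -0.18 to 0.20 for Batf3 in Combo against WT. Clec9a was 0.0062 in ATM Combo against Vehicle with those 2 groups alone. The low and scattered counts of Xcr1, Clec9a and Ccr9 in ATM limit what can be seen there.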
